A study of Mus musculus with 12 samples.

Results

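The 30 genes described here make, import, export, store and oxidise cholesterol or control those steps, and they were taken as a list of symbols that was matched to the Ensembl identifiers of the deposited count table by GENCODE mouse gene names. All 30 symbols matched 1 identifier each among the 17579 genes of the table. The table holds 12 libraries of messenger RNA in 4 groups of 3 pools: R6/1 retina, wt retina, R6/1 striatum and wt striatum. R6/1 mice are a model of Huntington's disease in which a transgene supplies the start of human huntingtin with a lengthened CAG repeat, next to their own unaltered copies, and the wt mice were littermates without it. All mice were untreated males on a background labelled C57Bl/6 and given as C57BL/6 J in the study's methods, aged 13 to 15 weeks. Retina and striatum came from the same mice, and each library was made from RNA pooled over several mice, so that the spread given here is between pools and not between single animals. The sources used here do not say whether a retinal and a striatal pool with the same number held the same mice.

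Cholesterol does not cross the blood-brain and blood-retina barriers freely, and neural tissue therefore makes most of its own, in adult brain largely in glia. Acetyl units are joined to mevalonate and then to isoprenoid units (Acat2, Hmgcs1, Mvk, Pmvk, Mvd, Idi1, Fdps), isoprenoids are joined to squalene and closed to lanosterol (Fdft1, Sqle, Lss), and lanosterol is trimmed and rearranged to cholesterol (Cyp51, Tm7sf2, Msmo1, Nsdhl, Hsd17b7, Ebp, Sc5d, Dhcr7). The transcription factor SREBP2, product of Srebf2, raises these enzymes when membrane sterol is low; its escort SCAP carries it out of the endoplasmic reticulum and INSIG1, itself a target, holds it back. When oxidised sterols accumulate, the liver X receptors (Nr1h2, Nr1h3) raise the exporters Abca1 and Abcg1, the lipid carrier Apoe and Mylip, whose product removes lipoprotein receptors. Neurons release excess cholesterol after hydroxylation by CYP46A1, and SOAT1 esterifies it for storage.

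To place these controls beside the values, the promoter of each member was taken from RefSeq on GRCm38.p6 as the 300 bases that run from 250 bases before to 50 bases after the annotated start. A promoter was found for 26 of the 30 members; Abcg1, Fdft1, Fdps and Sqle are named only. The 6 promoters shown belong to members on which the results turn: the mevalonate enzyme gene Hmgcs1 (chr13:119690101-119690400, plus strand), the post-lanosterol enzyme genes Msmo1 (chr8:64733529-64733828, minus strand) and Cyp51 (chr5:4104648-4104947, minus strand), the regulator genes Srebf2 (chr15:82147019-82147318, plus strand) and Insig1 (chr5:28071162-28071461, plus strand), and the exporter gene Abca1 (chr4:53159846-53160145, minus strand). Each is written 5′ to 3′ along its gene, and capitals mark a match to the sterol regulatory element core, to the NF-Y box or to the E-box on either strand.
Hmgcs1: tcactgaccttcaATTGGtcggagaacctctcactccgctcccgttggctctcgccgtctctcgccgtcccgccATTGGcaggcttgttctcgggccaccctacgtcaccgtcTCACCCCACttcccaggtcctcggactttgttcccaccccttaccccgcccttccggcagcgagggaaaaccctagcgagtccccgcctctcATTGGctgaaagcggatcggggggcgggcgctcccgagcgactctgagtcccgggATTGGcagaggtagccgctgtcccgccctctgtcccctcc
Msmo1: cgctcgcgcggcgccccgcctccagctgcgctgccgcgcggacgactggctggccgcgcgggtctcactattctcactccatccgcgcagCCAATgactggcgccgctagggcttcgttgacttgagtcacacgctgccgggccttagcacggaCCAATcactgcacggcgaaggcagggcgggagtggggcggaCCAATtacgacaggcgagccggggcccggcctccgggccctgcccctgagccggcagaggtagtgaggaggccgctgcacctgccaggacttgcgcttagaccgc
Cyp51: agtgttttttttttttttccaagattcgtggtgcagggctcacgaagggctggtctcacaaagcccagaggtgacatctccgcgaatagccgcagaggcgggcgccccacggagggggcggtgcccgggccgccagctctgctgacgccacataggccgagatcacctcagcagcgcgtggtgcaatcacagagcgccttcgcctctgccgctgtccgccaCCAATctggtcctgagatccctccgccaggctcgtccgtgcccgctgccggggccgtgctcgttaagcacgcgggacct
Srebf2: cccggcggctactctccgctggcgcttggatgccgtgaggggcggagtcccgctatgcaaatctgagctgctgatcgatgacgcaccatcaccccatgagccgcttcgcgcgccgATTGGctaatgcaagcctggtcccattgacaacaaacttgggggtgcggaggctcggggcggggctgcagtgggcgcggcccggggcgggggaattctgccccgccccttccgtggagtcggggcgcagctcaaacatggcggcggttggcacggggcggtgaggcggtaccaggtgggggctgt
Insig1: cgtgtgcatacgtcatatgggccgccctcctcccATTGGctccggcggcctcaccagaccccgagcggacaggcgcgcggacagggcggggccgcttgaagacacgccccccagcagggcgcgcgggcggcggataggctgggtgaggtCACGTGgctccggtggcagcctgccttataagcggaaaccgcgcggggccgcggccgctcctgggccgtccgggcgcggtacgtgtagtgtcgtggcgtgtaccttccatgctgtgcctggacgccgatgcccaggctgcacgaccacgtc
Abca1: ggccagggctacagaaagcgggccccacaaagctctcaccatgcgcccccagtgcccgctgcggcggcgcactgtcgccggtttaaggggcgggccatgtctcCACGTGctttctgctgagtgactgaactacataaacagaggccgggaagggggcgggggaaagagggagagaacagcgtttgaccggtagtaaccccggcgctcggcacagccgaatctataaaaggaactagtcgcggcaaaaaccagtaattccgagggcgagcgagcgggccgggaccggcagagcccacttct

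The sterol regulatory element core TCACCCCAC was found in 1 of the 26 member promoters (3.85%), that of Hmgcs1. Its first base lay 137 bases before the start. Over all 27025 promoters searched, taken as 1 a gene, 0.522% held this core. The looser form TCACNCCAC gave the same match and no other member, against 1.22% of all promoters. The NF-Y box CCAAT, which reads ATTGG on the other strand and binds the factor that works beside SREBP2, was found in 19 of 26 member promoters (73.1%) against 37.9% of all promoters. Hmgcs1 held 4 of them, Msmo1 held 3 and Cyp51, Srebf2 and Insig1 held 1 each, while Abca1 held none. The E-box CACGTG was present in 5 members (Abca1, Hsd17b7, Insig1, Sc5d and Scap), 19.2% against 7.24%. The GC box GGGCGG, left in lower case, was present in 21 members, 80.8% against 35.9%. The direct repeat bound by liver X receptors was sought only as exact copies of AGGTCA, without a mismatch. In that form it was found in no member promoter and in 0.0111% of all promoters. Imperfect copies were not sought, so the search cannot show that a member lacks such an element. These matches describe letters within a short window and are neither binding sites nor a measure of binding.

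**Figure D1:**
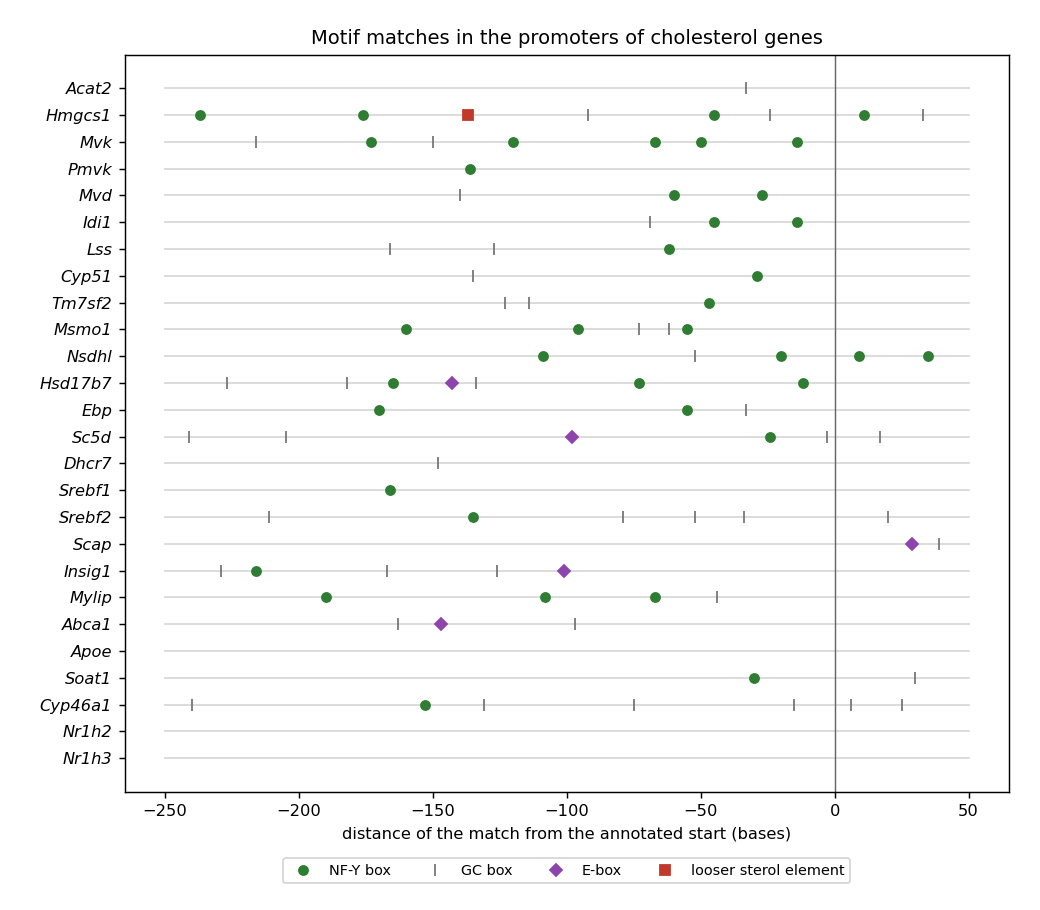
Motif matches in the first listed promoter of each of the 26 members with a RefSeq promoter. Each row is a gene, in the order of the pathway. The horizontal axis is the distance of the first base of a match from the annotated start, in bases. Circles (NF-Y box) occur in 19 rows, bars (GC box) in 21, diamonds (E-box) in 5, and the square (sterol element) only in the row of Hmgcs1; Apoe, Nr1h2 and Nr1h3 have no match.

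The libraries held 14070445 to 22432431 estimated counts, and the 30 members together took 0.18% to 0.254% of them. Levels are given as CPM, the counts brought to a common library size with TMM factors over all 12 libraries, in the order of pools 1, 2 and 3, and a gene is called where its adjusted p in edgeR's quasi-likelihood test, corrected over all genes tested, is under 0.05. The labelled tissues were borne out most clearly by rod markers. The 10 rod genes summed to 18240 to 26160 CPM in R6/1 retinas and 60500 to 68500 CPM in wt retinas but to under 8 CPM in every striatum. The 10 genes of medium spiny neurons summed to 1185 to 2278 CPM in R6/1 striata and 4316 to 6176 CPM in wt striata. They separated the tissues less sharply, with 655 to 707 CPM in R6/1 retinas and 956 to 1036 CPM in wt retinas. Because these are bulk samples, fewer cells of a type and less RNA per cell cannot be told apart. The pool wt striatum 2 lay close to the R6/1 striata: its rank correlation with the R6/1 striata (0.989 to 0.992) was as high as that with the other wt striata (0.988 and 0.989). In R6/1 retina 3 the lens markers summed to 664 CPM, against 2.84 to 58.2 CPM in the other libraries. In R6/1 striatum 3 the list for retinal pigment epithelium, which includes Ttr, summed to 141 CPM, against 9.95 to 21.3 CPM in the other striata. Of that list Rgr and Slc45a2 had no counts in any striatum, and the tissue from which this sum came was not tested. Because of these pools, each count of members is also given without single pools. Counts at an unadjusted p under 0.05 were not made over all genes, so they stand without a background share. Every member had counts in every library, the lowest being 29 counts of Nr1h3 in a wt striatum.

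In the retina, 8 of the 30 members differed between R6/1 and wt: Abca1, Apoe and Scap were higher, and Insig1, Msmo1, Cyp51, Idi1 and Nsdhl were lower in R6/1. Thus 16.7% of the members were lower and 10% were higher, against 12.7% of the 16582 genes tested that were lower and 9.58% that were higher, so that neither share stood clear of the background. The median log2 fold change of the members was -0.05, beside 0.01 over all genes tested, and it was 0.06, beside 0.13, with library totals as the scale. The change in Abca1 was the largest of the 30 in either direction. Without R6/1 retina 3, the pool with lens transcripts, 5 of the 8 calls were kept, and those of Idi1, Nsdhl and Scap were lost.

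Abca1 encodes the transporter that loads cholesterol and phospholipid onto apolipoproteins. It had 159, 145 and 159 CPM in R6/1 retinas, against 75.2, 74.0 and 82.6 CPM in wt retinas. The lowest R6/1 pool lay far above the highest wt pool, and the level in R6/1 was 2.04 times that in wt (log2 fold change 1.03, SE 0.07, adjusted p = 9.67e-09). Apoe, the main lipid carrier of neural tissue, had 399, 445 and 426 CPM in R6/1 retinas, against 345, 369 and 354 CPM in wt retinas. The groups did not overlap and the fold was 1.21 (log2 fold change 0.28, SE 0.06, adjusted p = 0.00352). Abca1 and Apoe passed the test in each of the 6 fits that left out 1 retinal pool.

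Beside them, the transcripts of glia went in both directions. All 10 markers of microglia and macrophages had values above 0 on the log2 scale in the retina and 6 were called higher (Csf1r, C1qa, Cd68, Ctss, Trem2 and Tyrobp), with a summed level of 50.7 to 59.6 CPM in R6/1 retinas and 32.8 to 33.7 CPM in wt retinas. Of 10 markers of Müller glia and astrocytes, Gfap (log2 fold change 1.65), Aldh1l1 and Vim were higher and Glul (-0.37) was lower, and the summed level was 3029 to 3330 CPM in R6/1 retinas and 3472 to 3981 CPM in wt retinas. The 10 rod markers, the 8 cone markers and the 10 markers of bipolar, amacrine and ganglion cells were all lower, and the last of these summed to 1107 to 1222 CPM in R6/1 retinas and 1768 to 1916 CPM in wt retinas. Over all genes tested in the retina, 12.7% were called lower and 9.58% higher. None of these marker lists contains Abca1 or Apoe, and the part of these cells in the results for Abca1 and Apoe was not tested.

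The other export gene, Abcg1, had a value of -0.04 on the log2 scale (SE 0.07, adjusted p = 0.755), with 88.7 to 106.5 CPM in R6/1 retinas and 99.3 to 102 CPM in wt retinas. Of the receptor genes, Nr1h3 was scarce, at 2.78, 3.24 and 3.88 CPM in R6/1 retinas against 2.21, 2.49 and 2.19 CPM in wt retinas, and its log2 fold change of 0.55 (SE 0.21) did not pass the test (adjusted p = 0.07). Nr1h2, the form that most cells carry, had a log2 fold change of -0.01 (adjusted p = 0.963). Mylip (0.22, SE 0.08, adjusted p = 0.0605) and the storage enzyme gene Soat1 (-0.02, adjusted p = 0.902) did not pass either. Of the exporters and carriers in the list, Abca1 and Apoe were thus the 2 that were higher.

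Of the regulators, Insig1 had 85.3, 79.0 and 87.9 CPM in R6/1 retinas, against 99.6, 99.8 and 111 CPM in wt retinas. Its groups did not overlap and it was lower by a log2 value of -0.27 (SE 0.07, adjusted p = 0.00783), although the call was lost without the pool wt retina 3 (adjusted p = 0.0552). Scap had 87.8, 78.8 and 82.3 CPM in R6/1 retinas, against 74.4, 70.8 and 76.7 CPM in wt retinas. Here too the groups did not overlap, with a log2 value of 0.19 (SE 0.07, adjusted p = 0.0439), and the call held in 1 of the 6 fits that left out a pool, that without R6/1 retina 2. Srebf2 showed no difference past the test, with 83.8, 95.2 and 88.9 CPM in R6/1 retinas and 95.7, 91.0 and 84.8 CPM in wt retinas (log2 fold change 0.01, SE 0.07, adjusted p = 0.928). Srebf1, whose SREBP1 product acts mainly on fatty acid synthesis, was at -0.16 on the log2 scale (SE 0.07, adjusted p = 0.118).

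Among the 18 synthesis enzymes, 4 were called lower in R6/1 retinas (22.2%, against 12.7% of all genes) and none higher (against 9.58%). Of the 18, 5 were lower and 1 higher at an unadjusted p under 0.05, a count not made over all genes. DESeq2 and limma-voom each called 3 lower and none higher. Over the 16582 genes tested, DESeq2 called 1792 lower and 1268 higher, and limma-voom called 2007 lower and 1388 higher. Msmo1, which encodes the methyl sterol oxidase, had 66.7, 57.7 and 60.8 CPM in R6/1 retinas, against 75.5, 75.3 and 76.1 CPM in wt retinas. It was the enzyme gene whose call held in all 6 fits that left out a pool (log2 fold change -0.26, SE 0.07, adjusted p = 0.0109). Cyp51, the lanosterol demethylase gene, had 64.2, 60.3 and 66.5 CPM in R6/1 retinas, against 73.9, 74.8 and 79.0 CPM in wt retinas. Its log2 fold change was -0.22 (SE 0.07, adjusted p = 0.0212), and the call was lost without wt retina 3 or R6/1 retina 2 (largest adjusted p = 0.0881). Both genes act just after lanosterol, and in both the pools of the 2 genotypes did not overlap.

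Idi1, the isopentenyl diphosphate isomerase gene, had 83.3, 60.5 and 71.5 CPM in R6/1 retinas, against 88.1, 94.1 and 89.9 CPM in wt retinas (log2 fold change -0.31, SE 0.10, adjusted p = 0.0444). Nsdhl, which encodes a sterol dehydrogenase that removes a carboxyl group, had 14.5, 13.4 and 15.7 CPM in R6/1 retinas, against 17.5, 16.5 and 22.3 CPM in wt retinas (log2 fold change -0.34, SE 0.12, adjusted p = 0.0491). These 2 calls lay at the threshold, and each held in only 1 of the 6 fits that left out a pool, without R6/1 retina 1 for Idi1 and without wt retina 2 for Nsdhl. The other 14 enzymes ranged in log2 fold change from -0.29 (Tm7sf2, adjusted p = 0.14) to 0.23 (Pmvk, adjusted p = 0.0619), and none passed the test. Over all 18, 6 had every R6/1 pool below every wt pool and 1, Pmvk, had every R6/1 pool above, where 23.0% and 15.3% of all genes tested did so. The summed level of the 18 enzymes was 851, 778 and 846 CPM in R6/1 retinas, against 898, 890 and 966 CPM in wt retinas, a ratio of means of 0.899 without overlap between the groups. All these values rest on TMM: with library totals as the scale, the median of all genes tested in the retina moved to 0.13 on the log2 scale, that of the 18 enzymes to 0.00, and none of the 5 lower calls was kept.

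**Figure D2:**
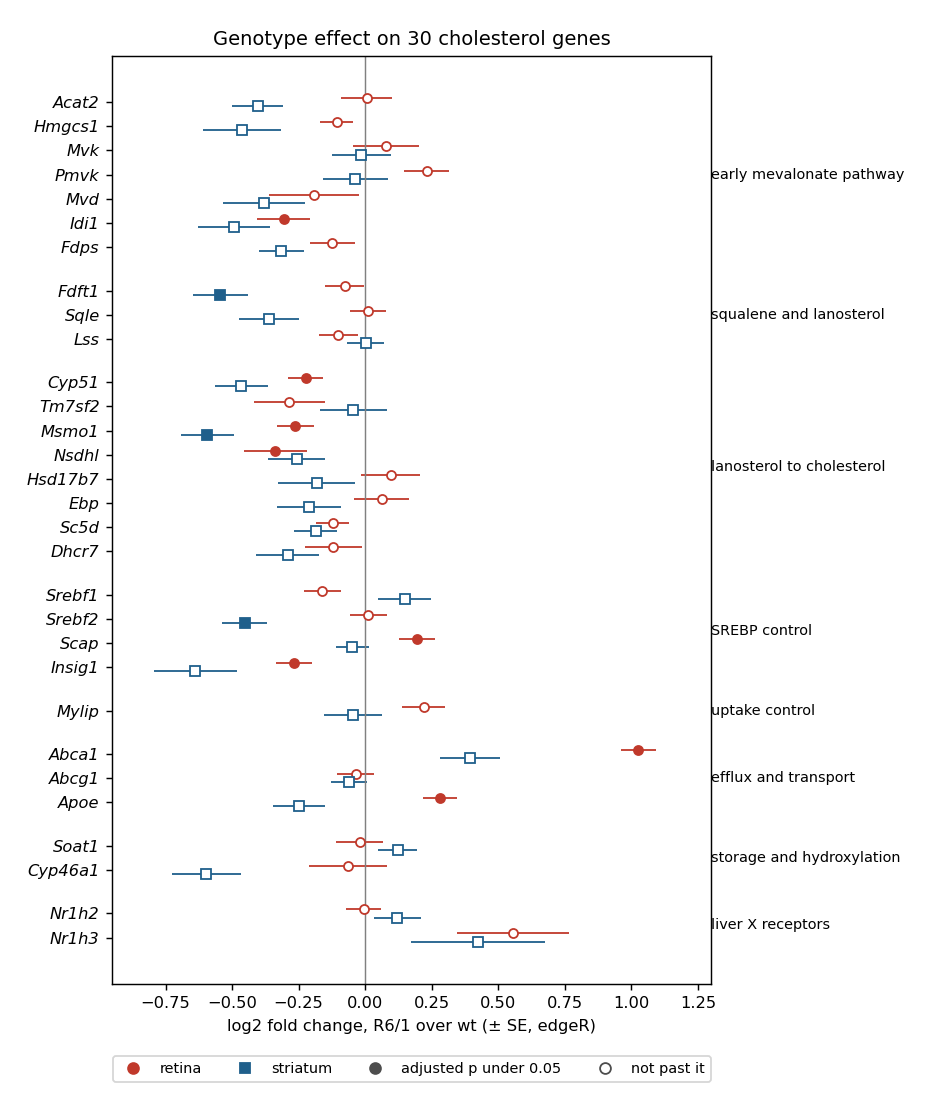
Log2 fold change of R6/1 over wt for the 30 members, grouped by role, with bars of 1 SE from edgeR. Circles are the retina, squares the striatum, and filled symbols passed an adjusted p of 0.05. The circle of Abca1 stands alone at 1.03, and 17 of the 18 synthesis enzymes have their square left of 0, which became 14 of 18 with library totals as the scale.

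In the striatum, 3 members differed between R6/1 and wt, and all were lower in R6/1: the enzyme genes Msmo1 and Fdft1 and the regulator gene Srebf2. This was 10% of the members, against 1.32% of the 16728 genes tested that were lower, and no member was higher, against 0.132% (1 at an unadjusted p under 0.05, 1 with DESeq2 and none with limma-voom). On the lower side limma-voom called 3 members, where it called 247 of 16728 genes lower and 25 higher. DESeq2 called 9 members lower, against 4.81% of all genes lower and 1.06% higher. At an unadjusted p under 0.05, 16 members were lower, a count not made over all genes. Beside the 3 main calls, DESeq2 called Acat2, Cyp46a1, Cyp51, Hmgcs1, Idi1 and Insig1 lower and Abca1 higher. The median log2 fold change of the 30 members was -0.23, beside 0.01 over all genes tested, and -0.12, beside 0.12, with library totals as the scale, where Msmo1 alone kept its call. Striatal pools with the same number deviated together across genotypes, although no label states that they are paired. The test was therefore also made with the pool number as a block. There 8 members were lower and none higher, against 7.11% of all genes lower and 2.83% higher. The 8 were the same 3 and Acat2, Fdps, Cyp51, Apoe and Cyp46a1.

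Msmo1 had 55.9, 62.5 and 58.9 CPM in R6/1 striata, against 98.7, 75.9 and 92.9 CPM in wt striata. The fold was 0.663 (log2 fold change -0.59, SE 0.10, adjusted p = 0.0289). Fdft1, the squalene synthase gene and the first step given over to sterols alone, had 45.1, 55.2 and 48.1 CPM in R6/1 striata, against 79.4, 62.8 and 74.4 CPM in wt striata. The fold was 0.686 (log2 fold change -0.54, SE 0.10, adjusted p = 0.0446). In both genes the groups did not overlap, wt striatum 2 was the lowest wt pool and R6/1 striatum 2 the highest R6/1 pool. Srebf2 had 120, 128 and 130 CPM in R6/1 striata, against 176, 153 and 187 CPM in wt striata. Its log2 fold change was -0.45 (SE 0.08, adjusted p = 0.0386), and wt striatum 2 was again the lowest wt pool.

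These 3 calls depended on single pools, and so did those of most other genes. None of the 30 members was called without wt striatum 1, without wt striatum 3, without R6/1 striatum 1 or without R6/1 striatum 3. In these fits, in that order, 1, 5, 6 and 27 genes were called over all genes tested, against 242 with all pools. Of the members 11 to 12 had an unadjusted p under 0.05 there, a count not made over all genes. Srebf2 was also lost without R6/1 striatum 2. Without wt striatum 2, 12 members were called, 11 lower and Abca1 higher, where 7.25% of all genes tested were lower and 4.32% higher. Without both pools numbered 2, 17 members were called, 16 lower and Abca1 higher, where 10.2% of all genes tested were lower and 6.21% higher. Over the 18 synthesis enzymes, wt striatum 2 was the lowest wt pool in 13 and R6/1 striatum 2 the highest R6/1 pool in 13. These 2 counts were not made over all genes, so they do not show an order particular to the enzymes. The summed level of the 18 was 678, 802 and 708 CPM in R6/1 striata, against 1013, 815 and 1019 CPM in wt striata, a ratio of means of 0.768. The pools numbered 2 of the 2 genotypes thus lay next to each other, without overlap of the groups. The gap between these 2 pools rests on their TMM factors, 1.036 for R6/1 striatum 2 and 0.975 for wt striatum 2.

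Of the remaining 16 enzymes, 15 had log2 fold changes below 0 and Lss was at 0.00. The largest of these values in the mevalonate steps were those of Idi1 (-0.49, SE 0.14, adjusted p = 0.111, and 0.0169 with DESeq2), Hmgcs1 (-0.46, SE 0.15, adjusted p = 0.148, and 0.0254 with DESeq2) and Acat2 (-0.40, SE 0.10, adjusted p = 0.0791). Hmgcs1, which makes the substrate of the rate-setting reductase, had 186, 245 and 206 CPM in R6/1 striata, against 323, 235 and 320 CPM in wt striata, so that its groups overlapped through the pools numbered 2. Acat2, which joins acetyl units, had 29.5, 26.8 and 28.3 CPM in R6/1 striata, against 39.5, 32.5 and 39.9 CPM in wt striata, and it was called with the pool number as a block (adjusted p = 0.0079). Fdps, the farnesyl diphosphate synthase gene, had 25.97, 26.03 and 24.41 CPM in R6/1 striata, against 33.1, 28.8 and 33.2 CPM in wt striata, with a value of -0.31 on the log2 scale (SE 0.08, adjusted p = 0.098, and 0.0409 with the block). Mvd, the diphosphomevalonate decarboxylase gene, was at -0.38 (SE 0.15, adjusted p = 0.22), while the kinase genes Mvk and Pmvk lay at -0.01 and -0.04 on the same scale.

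Past lanosterol, Cyp51 had 44.3, 51.2 and 44.0 CPM in R6/1 striata, against 66.6, 55.9 and 70.0 CPM in wt striata. Its log2 fold change was -0.47 (SE 0.10), with an adjusted p of 0.0558, and 0.0355 with the block. Sqle, the squalene epoxidase gene, which acts before lanosterol, was at -0.36 on the log2 scale (SE 0.11, adjusted p = 0.133). Dhcr7 (-0.29), Nsdhl (-0.26), Ebp (-0.21), Sc5d (-0.19), Hsd17b7 (-0.18) and Tm7sf2 (-0.04) were smaller, and none of them passed the test with or without the block. In all, 9 of the 18 enzymes had every R6/1 pool below every wt pool and none had every R6/1 pool above, where 12.7% and 12.8% of the genes tested did so.

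Insig1 had the most negative log2 fold change of the 30 in the striatum, -0.64 (SE 0.16), but it did not pass the test in edgeR (adjusted p = 0.0938, and 0.136 with the block), while DESeq2 called it (adjusted p = 0.0023). It had 38.6, 46.1 and 42.7 CPM in R6/1 striata, against 68.9, 50.8 and 78.9 CPM in wt striata, where wt striatum 2 lay nearest to the R6/1 pools. Cyp46a1, the neuronal cholesterol 24-hydroxylase gene, had 93.3, 73.5 and 94.1 CPM in R6/1 striata, against 135, 112 and 148 CPM in wt striata. The pools with the same number moved together and its log2 fold change of -0.60 (SE 0.13) passed with the block (adjusted p = 0.000124) and not without it (adjusted p = 0.0719). Scap (-0.05), Srebf1 (0.15), Mylip (-0.05), Abcg1 (-0.06), Soat1 (0.12), Nr1h2 (0.12) and Nr1h3 (0.42) did not pass the test in either form.

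Apoe had 794, 873 and 721 CPM in R6/1 striata, against 891, 1041 and 900 CPM in wt striata (log2 fold change -0.25, SE 0.10, adjusted p = 0.206, and 0.031 with the block). Abca1 had 109, 102 and 105 CPM in R6/1 striata, against 67.2, 94.1 and 79.1 CPM in wt striata. The groups of Abca1 did not overlap, and its log2 fold change of 0.39 (SE 0.11) did not pass the test in edgeR (adjusted p = 0.113, and 0.0892 with the block), while DESeq2 called it (adjusted p = 0.0318). Of 10 microglial markers none was called in the striatum by edgeR, DESeq2 or limma-voom (1 lower at an unadjusted p under 0.05), and their sum was 337 to 367 CPM in R6/1 striata and 363 to 387 CPM in wt striata.

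Markers of other striatal cells were read beside these values. All 10 markers of medium spiny neurons had log2 fold changes below 0. Penk (-1.97) and Scn4b (-2.51) were called lower, where 1.32% of all genes tested were. With the block 8 were lower, against 7.11% of all genes. DESeq2 called 8 lower, against 4.81%, and limma-voom called 6 lower, against 247 of 16728 genes. The ratio of the summed means of the 10 markers was 0.370. R6/1 striatum 2 was the lowest striatal pool at 1185 CPM, whereas it had the highest sum of synthesis enzymes among the R6/1 striata. Of 10 markers of Müller glia and astrocytes, Glul was called lower (-0.50), with a summed level of 2146 to 2612 CPM in R6/1 striata and 2784 to 3016 CPM in wt striata. No oligodendrocyte marker was called (4 lower and 1 higher at an unadjusted p under 0.05, and 1 lower with DESeq2), and the 10 summed to 6162 to 6719 CPM in R6/1 striata and 6781 to 7555 CPM in wt striata. The part of these cells in the striatal results was not tested.

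**Figure D3:**
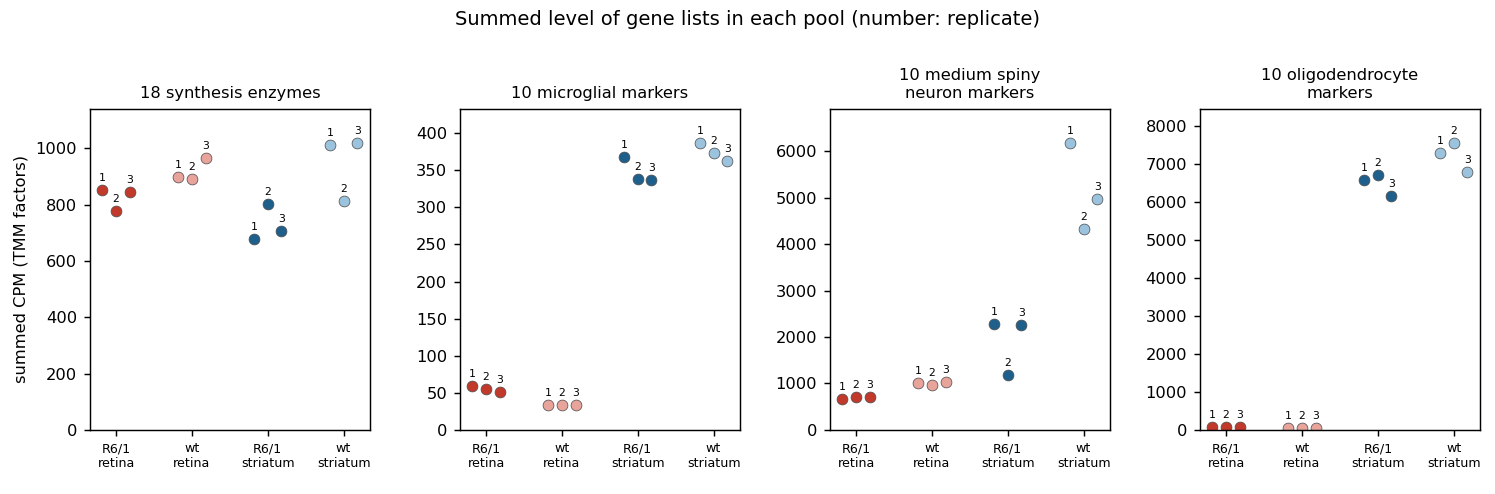
Summed level in each pool (vertical axis, CPM with TMM factors, starting at 0) of the 18 synthesis enzymes and of 10 markers each of microglia, medium spiny neurons and oligodendrocytes; each point is a pool and carries its number. The enzymes summed to 678 to 802 CPM in R6/1 striata and 815 to 1019 CPM in wt striata. Both pools numbered 2 lay next to this gap, which rests on the TMM factors. The microglial sum in the retina was 50.7 to 59.6 CPM in R6/1 and 32.8 to 33.7 CPM in wt.

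The effect of the R6/1 genotype was then compared between the tissues, as the effect in the retina minus that in the striatum, in 1 fit of all 12 libraries whose estimates need not equal the difference of the values fitted within each tissue. Among the 30 members 3 passed the test, all above 0: Abca1, Apoe and Srebf2. This was 10% of the members, against 3.38% of the 15731 genes tested, while none was called below 0 by edgeR, DESeq2 or limma-voom (1 at an unadjusted p under 0.05), against 4.86%. For Abca1 the difference was 0.60 (SE 0.13, adjusted p = 0.014), beside within-tissue log2 fold changes of 1.03 (retina) and 0.39 (striatum), and it passed in all 12 fits that left out a library. For Apoe the difference was 0.50 (SE 0.12, adjusted p = 0.0178), beside 0.28 (retina) and -0.25 (striatum), and it was lost without wt retina 1 (adjusted p = 0.0562). For Srebf2 the difference was 0.43 (SE 0.11, adjusted p = 0.0276), beside 0.01 (retina) and -0.45 (striatum). It was lost in 6 of the 12 fits that left out a library: without wt retina 2 or 3, R6/1 retina 2, wt striatum 1 or 3, or R6/1 striatum 1 (largest adjusted p = 0.0749).

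None of the 18 enzymes passed this test of the difference (4 at an unadjusted p under 0.05, 1 with DESeq2 and none with limma-voom). Over the 15731 genes tested, DESeq2 called 671 above 0 and 944 below, and limma-voom called 440 above and 680 below. The median over the 18 was 0.18, beside -0.02 over all genes tested. Fdft1 (0.43, SE 0.14, adjusted p = 0.0632), Acat2 (0.38, SE 0.14, adjusted p = 0.105) and Sqle (0.34, SE 0.14, adjusted p = 0.149) had the smallest p values among them. Lss, Tm7sf2 and Nsdhl were the 3 enzymes below 0. Fdft1 was the enzyme called by DESeq2 (adjusted p = 0.0426), and it was also called by edgeR with library totals (adjusted p = 0.0408). Without wt striatum 2, 11 members passed, 10 above 0 and Srebf1 below, where 5.76% of all genes tested were above and 7.01% below.

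**Figure D4:**
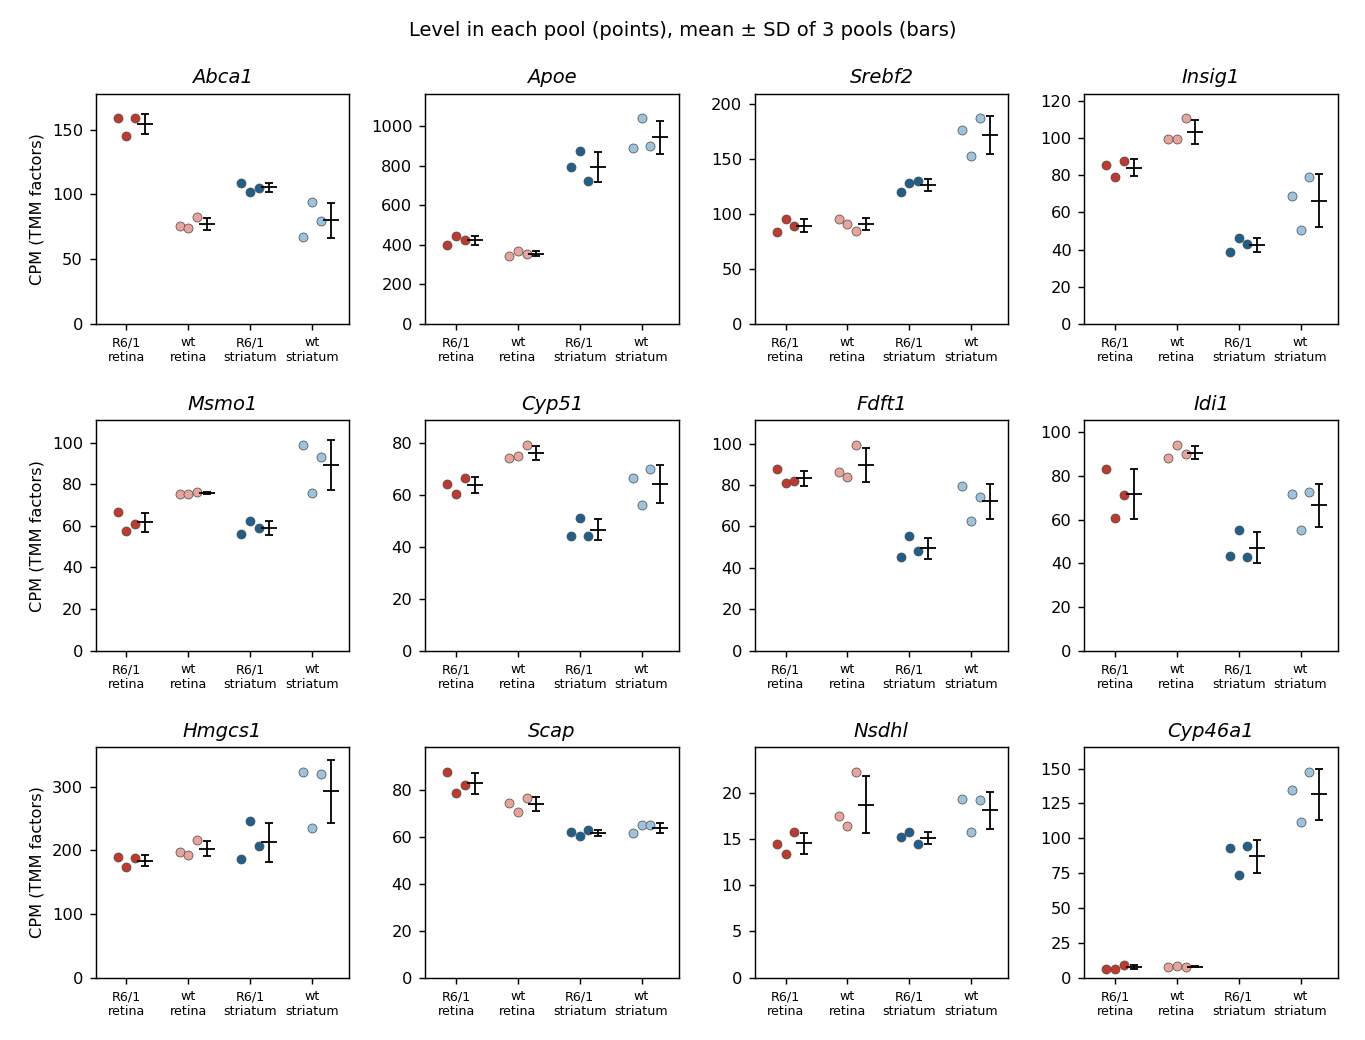
Level of 12 members in each of the 12 pools (vertical axis, CPM with TMM factors, starting at 0), with the mean and SD of 3 pools as bars beside the points. Abca1 lies at 145 to 159 CPM in R6/1 retinas and 74.0 to 82.6 CPM in wt retinas, Srebf2 is lower in R6/1 striata (120 to 130 CPM) than in wt striata (153 to 187 CPM) with no such gap in the retina, and Cyp46a1 lies at 6.48 to 8.92 CPM in R6/1 retinas and 7.58 to 8.05 CPM in wt retinas.

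The 2 wt tissues were compared to show the levels on which the genotype acts. Of the 30 members, 13 had the higher level in wt retina and 8 in wt striatum, 43.3% and 26.7%, against 37.8% of 16864 genes tested that were higher and 38.5% that were lower. Per kilobase of exon (RPKM), Apoe was the most abundant member in both, with 166 ± 5.54 RPKM in wt retina and 442 ± 39.5 RPKM in wt striatum (SD, n = 3 pools), followed by Hmgcs1 with 44.0 ± 2.58 RPKM in wt retina and 63.6 ± 10.9 RPKM in wt striatum. Nr1h3 was the least abundant in both, at 0.913 RPKM in wt retina and 0.766 RPKM in wt striatum.

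The largest difference between the tissues was in Cyp46a1, which had 7.77, 8.05 and 7.58 CPM in wt retinas, against 135, 112 and 148 CPM in wt striata (log2 fold change -4.08, SE 0.12, adjusted p = 7.16e-11). On the RPKM scale it ranked 3 of the 30 in wt striatum and 29 in wt retina. Apoe was also lower in wt retina (log2 fold change -1.41, SE 0.08), as were Srebf2 (-0.93, SE 0.09), Acat2 (-0.78, SE 0.11), Soat1 (-0.61, SE 0.08) and Hmgcs1 (-0.53, SE 0.12). Mylip was the member most shifted to the retina, with 33.8, 37.8 and 42.8 CPM in wt retinas, against 12.8, 16.0 and 14.2 CPM in wt striata (log2 fold change 1.41, SE 0.11, adjusted p = 3.91e-07). Insig1 (0.64, SE 0.15), Lss (0.60, SE 0.08), Nr1h2 (0.57, SE 0.08), Srebf1 (0.47, SE 0.10) and Idi1 (0.45, SE 0.10) were higher in wt retina too, together with Ebp, Fdps, Pmvk, Fdft1, Cyp51, Abcg1 and Scap (0.21 to 0.39). Msmo1 (-0.24, adjusted p = 0.0321) and Hsd17b7 (-0.41, adjusted p = 0.0394) were lower in wt retina with groups that overlapped, and their calls were lost in 5 and in 4 of the 6 fits that left out a pool. Fdft1 and Scap were lost without wt retina 3, and Cyp51 without that pool or wt striatum 2 (largest adjusted p = 0.0992). Abca1 did not differ past the test between wt retina and wt striatum (log2 fold change -0.06, SE 0.11, adjusted p = 0.669).

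**Figure D5:**
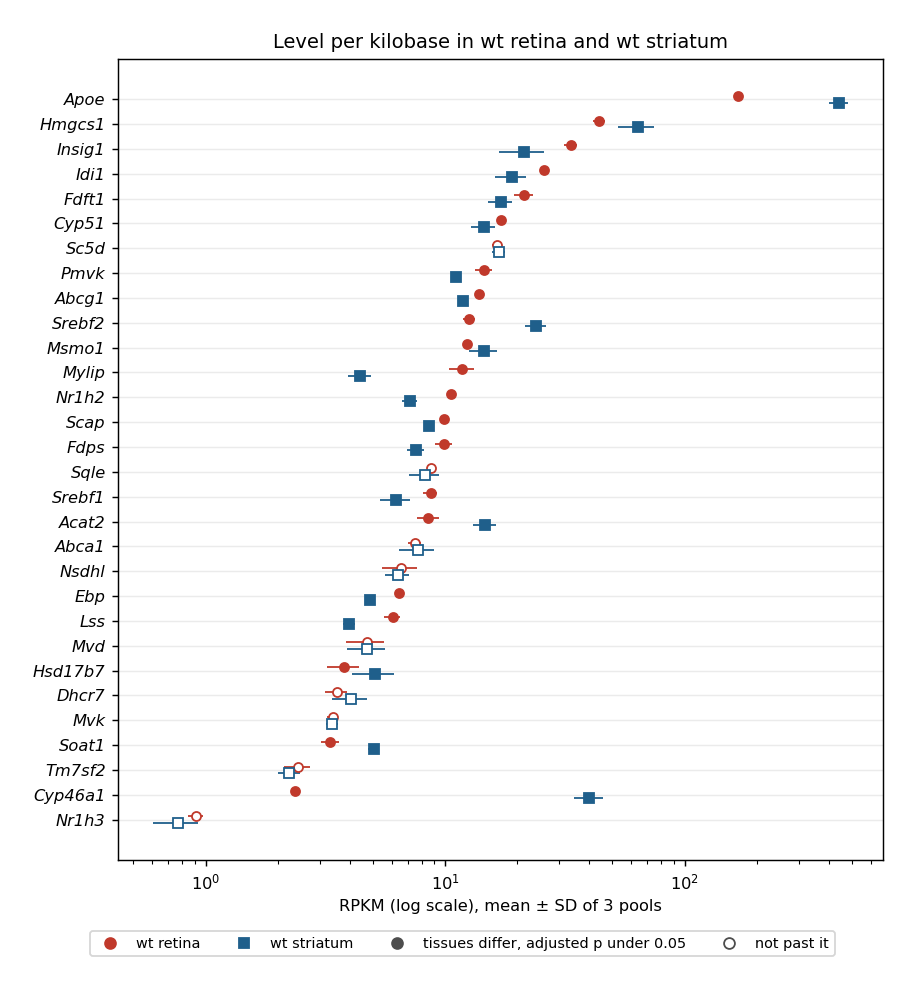
Level per kilobase of exon (horizontal axis, RPKM on a log scale) of the 30 members in wt retina (circles) and wt striatum (squares), mean and SD of 3 pools, ordered by the level in wt retina. Filled symbols mark members that differ between the tissues. Cyp46a1 has the widest gap, 2.37 RPKM in wt retina and 40.0 RPKM in wt striatum.

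Genes of neighbouring pathways were read in the same fits from 5 lists. Of 20 SREBP targets of fatty acid synthesis, 7 were lower in R6/1 retinas and none higher, 35% against 12.7% of all genes, and their median was -0.17 on the log2 scale. The called genes included Acsl3, which activates long fatty acids (-0.38, SE 0.06, adjusted p = 0.000272), Pnpla3, a lipase-like gene (-0.76, SE 0.13, adjusted p = 0.000469), and Fads1, the delta-5 desaturase gene (-0.31, SE 0.07, adjusted p = 0.00269). In R6/1 striata 1 of the 20 was lower, again Fads1 (-0.41, SE 0.08, adjusted p = 0.0455). Fads1 was thus called in both tissues, although its striatal call was lost without wt striatum 1 or 3 or R6/1 striatum 1 or 3 (largest adjusted p = 0.243).

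Of 20 other genes of sterol synthesis and trafficking, 3 were lower (15%) and 4 higher (20%) in R6/1 retinas, against 12.7% and 9.58% of all genes, with a median of 0.03. Gramd1b, whose product moves sterol from the plasma membrane to the endoplasmic reticulum, was lower (-0.37, SE 0.06, adjusted p = 0.000343), and Erlin2, which acts with the INSIG proteins at the endoplasmic reticulum, was higher (0.29, SE 0.06, adjusted p = 0.0027). In R6/1 striata 1 of the 20, the lipid transfer gene Osbpl8, was lower (-0.57, SE 0.10, adjusted p = 0.0346), a call that held in 1 of the 6 fits that left out a pool, that without wt striatum 2. Of 16 lipoprotein receptor and uptake genes, 4 were lower (25%) and 1 higher (6.25%) in R6/1 retinas, against the same 12.7% and 9.58%, and none was called in R6/1 striata (3 lower at an unadjusted p under 0.05, 1 lower with DESeq2 and none with limma-voom). Lrp2, the megalin gene, was higher (0.83, SE 0.07, adjusted p = 3.27e-07) and Scarb1, a receptor for high-density lipoprotein, was lower (-0.57, SE 0.08, adjusted p = 3.68e-05).

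Of 16 tested genes of lipoproteins, efflux and LXR targets beyond the members, 2 were lower (12.5%) and 1 higher (6.25%) in R6/1 retinas, near the 12.7% and 9.58% of all genes. The apolipoprotein gene Clu was higher (0.55, SE 0.09, adjusted p = 0.00107), while the exporter gene Abcg4 (-0.41, SE 0.06, adjusted p = 0.000181) and Arl4c, a known LXR target (-0.25, SE 0.07, adjusted p = 0.0178), were lower. The call of Arl4c was lost in 4 of the 6 fits that left out a pool, those without wt retina 1 or 3 or R6/1 retina 1 or 3. No gene of this list was called in R6/1 striata (3 lower and 2 higher at an unadjusted p under 0.05, 1 each way with DESeq2 and none with limma-voom). Of 5 genes of sterol oxidation in the table, the oxysterol hydroxylase gene Cyp39a1 was higher in R6/1 retinas (0.45, SE 0.16, adjusted p = 0.0479), a call lost without wt retina 1 or 3 or R6/1 retina 1 or 2, and Cyp27a1 (-0.03), Cyp7b1 (-0.05), Hsd3b7 (-0.04) and Cyp11a1 (-0.57) did not pass. In R6/1 striata the 5 values ran from -0.73 (Cyp11a1) to 0.27 (Cyp27a1), and none passed in edgeR, DESeq2 or limma-voom or reached an unadjusted p of 0.05.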

How the data were processed

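The study measured messenger RNA by stranded, paired-end sequencing of 12 pools. The deposited table holds estimated counts per Ensembl gene, as whole numbers; per the labels and the study's methods, the authors demultiplexed the reads with CASAVA, trimmed them with Trimmomatic and quantified them with Salmon on GRCm38 (mm10), with versions not given in the sources used here. No gene of the table sums to under 11 counts over the libraries. The counts were used as deposited, and every column belonged to a sample.

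Gene names, exon lengths and positions came from GENCODE M21 (17530 of 17579 identifiers named). Each comparison was fitted with edgeR 4.0.16 (R 4.3.3): TMM factors, genes with at least 10 counts over the libraries compared (in each tissue for the difference), robust quasi-likelihood F-tests, two-sided, and Benjamini-Hochberg adjustment over all genes tested. The SE is the log2 fold change divided by the square root of F. The genotype was tested in each tissue on its 6 libraries, the difference between tissues on all 12, and wt retina against wt striatum on 6. The fits were tested on simulated counts with changes larger than most genotype effects of the members and without deviations shared between pools. That test does not bear on the smaller effects or on the dependence on single pools. RPKM is the CPM divided by the union of exons in kilobases. Pools are treated as replicates, so p-values measure the spread between pools only.

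Pool numbers were checked by correlating deviations from group means over 10445 genes. Same-numbered R6/1 and wt striata correlated (0.274, 0.329 and 0.257) and were taken as paired only in the fits with the pool number as a block. The main fits, from which calls not marked otherwise come, hold no block and do not use this pairing. This pairing was inferred from these data and is not given by the labels. R6/1 striatum 3 also correlated with wt striatum 1 (0.24), so the numbers may not pair the pools 1 to 1. The retinas (0.124, -0.0943 and 0.0511) and the wt tissues (-0.0261, 0.0195 and 0.000763) were not taken as paired, nor were retina and striatum over both genotypes (R6/1: 0.242, 0.119 and 0.179). Alternatives were DESeq2 1.42.0, limma-voom 3.58.1, other scalings and filters, a block, and each library left out.

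The members were given as a list, and they and the other lists were chosen with earlier results of these data known. Members called in a tissue or for the difference are given by library; of each other list, up to 3 called genes with the smallest p per tissue are named, of which 2 are not reported here. Reads of Tm7sf2 and Vps51, which overlap on 1 strand, may be shared by the estimate. Mvd, Fdft1, Cyp51 and Srebf1 overlap a gene on the other strand.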

Additional observations from a re-analysis of the deposited data

Results flagged for a closer look

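For 3 members there was a genotype effect that differed between the tissues by the test of the difference itself (edgeR's quasi-likelihood test, all 12 libraries). Abca1 had values above 0 in both tissues, called in the retina by edgeR and in the striatum by DESeq2 (adjusted p = 0.0318) but not by edgeR with all pools (adjusted p = 0.113), and the effect in the retina exceeded that in the striatum by 0.60 on the log2 scale. For Apoe the effect in the retina exceeded that in the striatum by 0.50. Every R6/1 pool lay above every wt pool in the retina, as for 15.3% of all genes tested. Every R6/1 pool lay below every wt pool in the striatum, as for 12.7% of all genes tested, a separation of Apoe that rests on the TMM factors. In the striatum Apoe was not called by the main edgeR fit, but it was with the pool number as a block. For Srebf2 the corresponding value was 0.43, with overlapping groups in the retina and every R6/1 pool below every wt pool in the striatum. The difference for Abca1 kept its call in each fit that left out a library, while those of Apoe and Srebf2 did not.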

How the results depend on the processing

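In the retina, 3691 genes and 8 members were called. At an adjusted p of 0.01 these were 2109 genes and 3 members, 5 members without robust estimation and 3 in 1 fit of all 12 libraries. Leaving out a library gave 2517 to 3583 genes and 5 to 6 members. Library totals gave 1445 lower and 3886 higher genes and 0 lower and 6 higher members, against 2103 and 1588 genes and 5 and 3 members with TMM. In the striatum, 242 genes and 3 members became 7 genes and 0 members at an adjusted p of 0.01, 982 genes and 10 members with DESeq2, 1035 genes and 10 members with DESeq2 and the block, 429 genes (209 lower and 220 higher) and 1 member with library totals, 1663 genes and 8 members with the replicate block, 1300 genes and 11 members in 1 fit of all 12 libraries, and 2662 genes and 17 members without both pools numbered 2. Leaving out a library gave 1 to 1916 genes and 0 to 12 members. The difference between tissues, 1296 genes and 3 members, gave 442 genes and 0 members at an adjusted p of 0.01, and 2129 genes and 12 members without both striata numbered 2, a setting chosen after seeing the data. Leaving out a library gave 767 to 1999 genes and 2 to 11 members. For wt retina against wt striatum, 12873 genes and 21 members were called, and 12022 to 12737 genes and 17 to 21 members with a library left out. In R6/1 mice the retina minus striatum value was 0.071 for Msmo1 and 0.56 for Abca1, of opposite sign to -0.24 and -0.06 in wt. No other called member changed sign in any alternative. The replicate block gave 3774 genes in the retina, where the numbers were not taken as paired, and lost Idi1 and added Mylip. It gave 1122 genes for the difference and 12850 for the wt tissues, and the same members there. The cause of these shifts was not tested.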
